A study of Homo sapiens with 4 samples.

Results

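The genes described here are the collagens outside type IV, taken as every entry of the deposited gene table whose name holds a symbol of the form COL, number, A, number, with the COL4A genes left out. The rule found 38 symbols in 41 of 64873 entries, and 28 of the 41 entries, for 27 symbols, passed the filter on low counts and were tested. The cells were K562, an established human erythroleukemia line, carrying an overexpressed U2AF1 S34F, a mutant of a splicing factor that helps to define the 3′ splice site. Both groups carried that mutant. They were treated with the solvent DMSO (2 libraries) or with 30 µM SF1-8, a compound found by screening a fragment library against the UHM domain of U2AF1, for 48 h (2 libraries). No parental K562 or wild-type U2AF1 library was analysed here, and the labels do not say whether the libraries of a group came from separate cultures or from 1 clone, so p-values measure only the spread between these libraries.

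Collagens are secreted or membrane-bound proteins whose chains carry a repeat of glycine and any other pair of residues (Gly-X-Y), which lets 3 chains wind into a triple helix. Fibrillar collagens build the fibrils of skin, bone and vessel walls and are made above all by fibroblasts and bone-forming cells. FACIT collagens sit on the surface of fibrils, beaded filament (type VI) collagens form fine filaments around cells, multiplexins lie in basement membranes, and transmembrane collagens stay in the cell membrane with a collagenous part outside. Erythroid cells are not a usual source of fibrillar collagen.

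The repeat is visible in the genes themselves, and it is shown here because its length sets the fibrillar genes apart, while the other classes overlap in it. In GENCODE 29 on GRCh38, the longest run of glycine codons at the first position of each Gly-X-Y triplet held between 337 and 343 repeats in 9 of the 11 fibrillar genes, with 216 in COL24A1 and 217 in COL27A1. The longest run held 30 repeats in each multiplexin, between 37 and 87 in the type VI genes, between 43 and 56 in the transmembrane genes and between 32 and 113 in the FACIT genes. Coding exons of 54 bases, the length of 6 repeats, were counted by length alone. There were from 21 in COL1A1 to 33 in COL24A1 and COL27A1 among the fibrillar genes. They numbered 2 in each multiplexin and from 4 to 28 in the FACIT genes, with the 28 in COL22A1. For 6 members that differ in class and in behaviour between the libraries, the first such exon is printed on the coding strand, with the glycine codon that opens each repeat in capitals.
COL5A1 (fibrillar, chr9:134753850-134753903, + strand): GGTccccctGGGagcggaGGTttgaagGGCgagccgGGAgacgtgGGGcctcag
COL11A1 (fibrillar, chr1:103008463-103008516, − strand): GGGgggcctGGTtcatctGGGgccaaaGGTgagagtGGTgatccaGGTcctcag
COL12A1 (FACIT, chr6:75103757-75103810, − strand): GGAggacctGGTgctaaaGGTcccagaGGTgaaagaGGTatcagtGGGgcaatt
COL6A2 (beaded filament, chr21:46115872-46115925, + strand): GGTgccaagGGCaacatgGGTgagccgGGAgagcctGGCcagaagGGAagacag
COL15A1 (multiplexin, chr9:99047786-99047839, + strand): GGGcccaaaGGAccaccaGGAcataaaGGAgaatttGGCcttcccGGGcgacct
COL18A1 (multiplexin, chr21:45494862-45494915, + strand): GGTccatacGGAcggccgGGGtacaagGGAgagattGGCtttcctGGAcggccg
The first 4 genes had lower values after SF1-8 and the last 2 hardly differed, as given below.

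The libraries summed to 45522905 and 64387710 estimated counts for DMSO 1 and DMSO 2, and to 67554610 and 64305922 for SF1-8 1 and SF1-8 2. The shallowest library, DMSO 1, stood apart. It held the highest FPKM (fragments mapped, scaled to transcript length and library depth) of the 4 libraries in 37.9% of the 26167 genes tested, and in 17 of the 28 tested collagen entries. The 14 entries of the erythroid and K562 markers were all present. GATA1, an erythroid transcription factor, had an FPKM of 76.0 and 79.1 after DMSO and 75.9 and 75.9 after SF1-8, and the main entry of TFRC, the transferrin receptor, had 114 and 111 after DMSO and 95.7 and 116 after SF1-8.

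Most collagen values were lower after SF1-8, and the size of the difference went from almost none to many-fold, within classes as well as between them. The fibrillar genes were the lowest after SF1-8 relative to DMSO, with a median log2 fold change of -2.13 over 7 tested entries. The median was -1.21 for the 3 genes of types VIII and X, -0.96 for 6 FACIT genes, -0.70 for 5 type VI genes, -0.12 for the 2 multiplexins and -0.03 for 4 transmembrane entries. The single anchoring fibril gene, COL7A1, had -1.08. Values ranged from -2.93 to 1.30 in the FACIT genes and from -1.73 to 0.33 in type VI. The transmembrane entries, which include both COL23A1 entries, ranged from -1.20 to 0.62, so that their median lies between opposed values. No tested fibrillar gene was above -1.01. Over the 28 tested entries the median was -1.15, and it was again -1.15 with COL11A1, which had no counts after SF1-8, set to its bound. Over all genes tested the median was -0.01. These medians describe entries that passed a filter on low counts, and 2 of them, COL8A1 and COL11A1, reached its minimum only in the DMSO libraries, so that they had to differ.

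No collagen passed an adjusted p of 0.05 in the edgeR quasi-likelihood test, adjusted by the Benjamini-Hochberg method, against 0.0420% of all genes tested. The smallest adjusted p was 0.551, for COL8A1. At an unadjusted p under 0.05, 11 of the 28 entries were lower after SF1-8 and 0 were higher by that test, where 2.54% of all genes were lower and 1.78% higher. Without COL8A1 and COL11A1, which passed the filter through DMSO alone, 9 of 26 entries were lower. DESeq2, run as an alternative, passed 4 collagens at an adjusted p under 0.05, all lower after SF1-8, against 0.386% of the genes to which it gave an adjusted p. They were COL8A1 (adjusted p = 0.00102), COL11A1 (0.00357), COL1A2 (0.00837) and COL5A1 (0.0327), and 2 of them remain without the pair that passed the filter through DMSO alone.

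**Figure D1:**
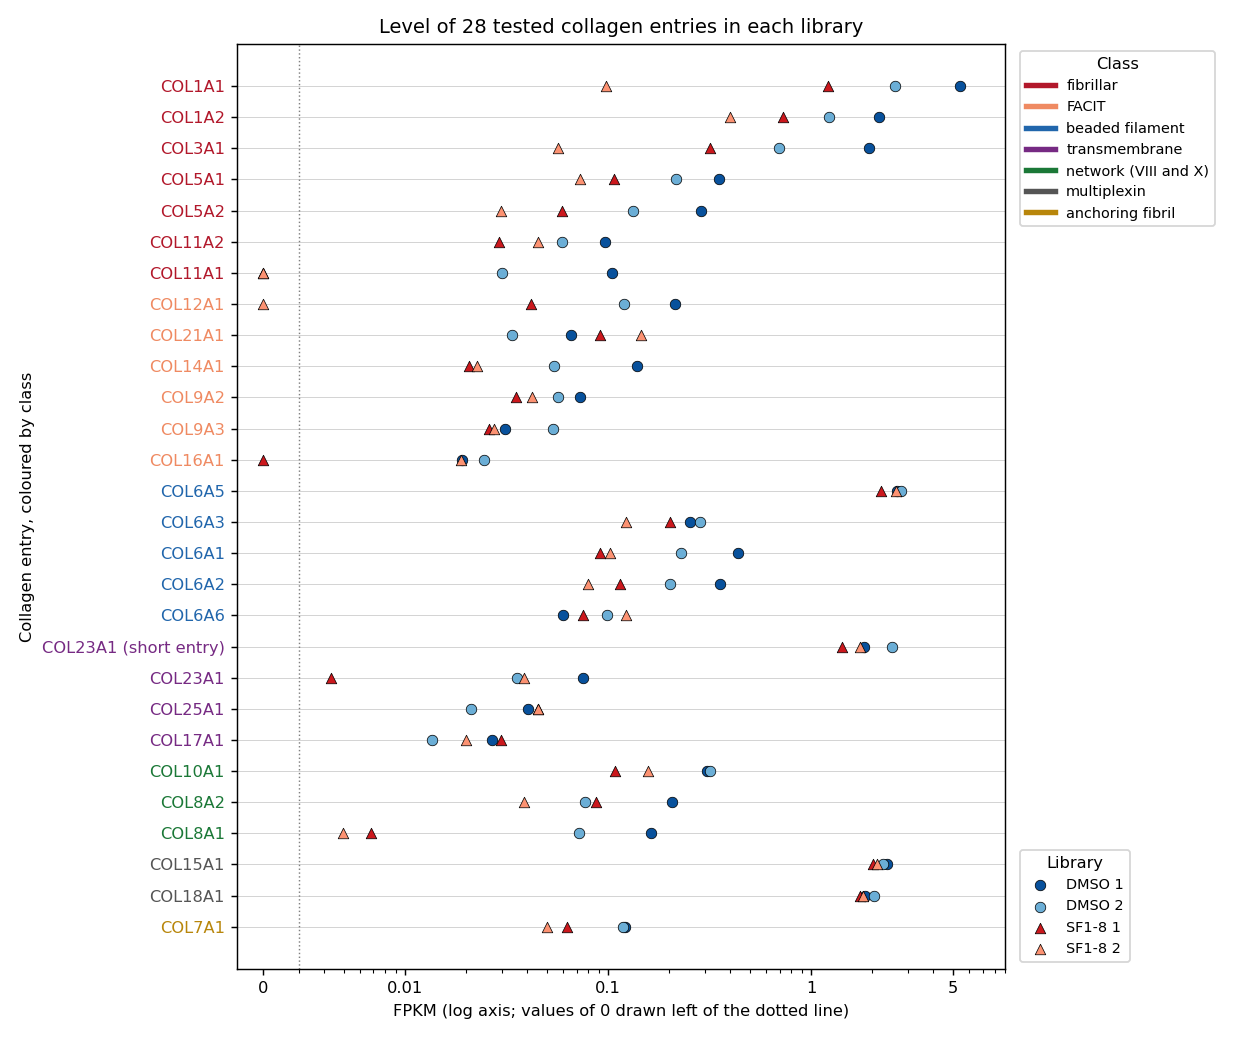
FPKM (log axis) of the 28 tested collagen entries in each of the 4 libraries, with circles for DMSO, triangles for SF1-8 and label colours for the class. In 22 entries both triangles lie left of both circles, and COL1A1 spans 5.39 to 0.0982 with wide gaps within the groups too.

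The fibrillar genes were the most regular class. Type I collagen is built from COL1A1 and COL1A2 chains, and COL3A1 forms the type III fibrils that accompany it. COL1A1 had an FPKM of 5.39 and 2.60 in the libraries DMSO 1 and DMSO 2 and of 1.21 and 0.0982 in SF1-8 1 and SF1-8 2. The groups did not overlap, but the 2 SF1-8 libraries differed 12.4-fold from each other, more than the 6.10-fold difference between the group means (3.996 ± 1.97 and 0.655 ± 0.788, SD, n = 2 each), and the unadjusted p was 0.0634 in the edgeR quasi-likelihood test. COL1A2 had 2.16 and 1.22 after DMSO and 0.729 and 0.399 after SF1-8, in the same order. Its spread within the groups was smaller (1.77-fold and 1.83-fold), and its log2 fold change was -1.54 (SE 0.38, unadjusted p = 0.00927, edgeR quasi-likelihood test).

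COL3A1 had an FPKM of 1.92 and 0.697 after DMSO and 0.319 and 0.0570 after SF1-8. Its log2 fold change was -2.73 (SE 0.88, unadjusted p = 0.0251, edgeR quasi-likelihood test), and its replicates differed 2.76-fold and 5.59-fold. Together these 3 genes made up 47.9% of the summed FPKM of the 38 full-length collagen entries in DMSO 1 and 32.6% in DMSO 2, against 23.8% in SF1-8 1 and 6.70% in SF1-8 2. All 11 fibrillar genes made up 52.2% and 35.8% of that sum in DMSO 1 and DMSO 2, and 26.1% and 8.49% in SF1-8 1 and SF1-8 2.

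The ratio between chains was compared in each library. COL1A1 stood at 2.49 times COL1A2 in DMSO 1 and 2.13 times in DMSO 2, against 1.66 times in SF1-8 1 and 0.246 times in SF1-8 2, in FPKM. COL3A1 stood at 0.357, 0.268, 0.263 and 0.581 times COL1A1 in the same order of libraries. COL1A1 was therefore low in SF1-8 2 also relative to COL1A2 and COL3A1. COL6A1 stayed closer to COL6A2, at 1.22, 1.13, 0.802 and 1.28 times its level.

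Type V and XI chains join type I and type II fibrils in small amounts and help to start them. COL5A1 had an FPKM of 0.353 and 0.217 after DMSO and 0.107 and 0.0726 after SF1-8, with a log2 fold change of -1.63 (SE 0.35, unadjusted p = 0.00484, edgeR quasi-likelihood test). COL5A2 had 0.288 and 0.133 after DMSO and 0.0595 and 0.0297 after SF1-8, and a log2 fold change of -2.13 (SE 0.56). The 5 fibrillar genes named so far ranked alike, after DMSO 1 highest, DMSO 2 next, SF1-8 1 after it and SF1-8 2 lowest. COL11A1 had 55 and 23 estimated counts after DMSO and none in either SF1-8 library, which is at least 16.4-fold lower against a floor of 3 counts per library. That bound rests much on DMSO 1, and it is 7.89-fold without that library. COL11A2 had 0.0963 and 0.0596 after DMSO and 0.0290 and 0.0451 after SF1-8. Its SF1-8 libraries ranked the other way round, and its log2 fold change was -1.01 (SE 0.57).

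The remaining 4 fibrillar genes had too few counts to be tested. COL5A3 and COL27A1 were listed at 0 in every library. COL24A1 had 11 and 8 estimated counts after DMSO and none after SF1-8, and COL2A1, the cartilage collagen, had 12 in SF1-8 1 only.

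The type VI genes split. COL6A1, COL6A2 and COL6A3 encode the chains of the classic type VI molecule, and COL6A5 and COL6A6 encode chains that can stand in for COL6A3. COL6A1 had an FPKM of 0.437 and 0.229 after DMSO and 0.0918 and 0.102 after SF1-8, and COL6A2 had 0.357 and 0.203 after DMSO and 0.114 and 0.0797 after SF1-8. Their log2 fold changes were -1.73 (SE 0.40, unadjusted p = 0.00708) and -1.47 (SE 0.41, unadjusted p = 0.0155) in the edgeR quasi-likelihood test. These 2 genes lie close together on chromosome 21 (45981769 to 46005050 and 46098112 to 46132848 of GRCh38, both on the + strand). COL6A3 had 0.252 and 0.283 after DMSO and 0.203 and 0.123 after SF1-8. It did not overlap either, with a log2 fold change of -0.70 (SE 0.29, unadjusted p = 0.0631, edgeR quasi-likelihood test) and after DMSO 2 above DMSO 1.

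COL6A5 was the collagen with the highest mean level, and it was nearly level across the libraries. Its FPKM was 2.65 and 2.76 after DMSO and 2.21 and 2.61 after SF1-8, and its log2 fold change was -0.14 (SE 0.12). It stood at 10.5, 9.75 and 10.9 times the level of COL6A3 in DMSO 1, DMSO 2 and SF1-8 1, and at 21.1 times in SF1-8 2. Its neighbour COL6A6 on chromosome 3 had 0.0601 and 0.0987 after DMSO and 0.0752 and 0.123 after SF1-8, so that the groups overlapped.

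The FACIT genes were all low, with a highest mean FPKM of 0.094. COL12A1, which binds type I fibrils, had an FPKM of 0.214 and 0.120 after DMSO, 0.0419 in SF1-8 1 and 0 in SF1-8 2, and a log2 fold change of -2.93 (SE 1.31). COL14A1, another fibril-binding chain, had 0.139 and 0.0542 after DMSO and 0.0206 and 0.0227 after SF1-8, with a log2 fold change of -2.09 (SE 0.59, unadjusted p = 0.0155, edgeR quasi-likelihood test). For both genes the SF1-8 libraries lay below the DMSO libraries, and COL12A1 missed the unadjusted threshold (unadjusted p = 0.0731, edgeR quasi-likelihood test). COL9A2 had 0.0732 and 0.0569 after DMSO and 0.0352 and 0.0423 after SF1-8. COL9A3, in an entry that overlaps TCFL5 on the other strand, had 0.0312 and 0.0535 after DMSO and 0.0259 and 0.0274 after SF1-8. COL16A1 had 0.0191 and 0.0246 after DMSO and 0 and 0.0190 after SF1-8. Their SE, between 0.72 and 1.62 on the log2 scale, was larger than the size of the difference in each of these 3 genes.

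COL21A1 went the other way. It had an FPKM of 0.0658 and 0.0336 after DMSO and 0.0912 and 0.146 after SF1-8, with a log2 fold change of 1.30 (SE 0.52, unadjusted p = 0.0531, edgeR quasi-likelihood test). SF1-8 2, the lowest library for most fibrillar genes, was the highest for this one. Of the other FACIT genes, COL20A1 and COL22A1 were listed at 0 in every library, COL19A1 had 11 estimated counts in DMSO 1 only, and COL9A1 had 4 in DMSO 2 and 8 in SF1-8 1. None of these 4 was tested.

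COL8A1, COL8A2 and COL10A1 encode short chains that form networks, type VIII in vessel walls and the cornea and type X in growing cartilage. COL8A1 had an FPKM of 0.162 and 0.0716 after DMSO and 0.00682 and 0.00495 after SF1-8, which rest on 89 and 55 against 7 and 4 estimated counts. Its log2 fold change of -3.97 (SE 0.66, unadjusted p = 0.00160, edgeR quasi-likelihood test) was the largest fitted for a collagen with counts in both groups. Here DMSO 2 stood 10.5-fold above SF1-8 1, beyond the 2.26-fold and 1.38-fold differences within the groups. COL8A2 had 0.207 and 0.0769 after DMSO and 0.0871 and 0.0384 after SF1-8, and its groups overlapped. COL10A1 had 0.307 and 0.318 after DMSO and 0.108 and 0.158 after SF1-8, so that its DMSO libraries were nearly equal. Its log2 fold change was -1.21 (SE 0.36, unadjusted p = 0.0197, edgeR quasi-likelihood test). The COL10A1 entry lies within NT5DC1, which is on the other strand, and whether the authors' counting used strand is not given in the sources used here.

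COL7A1 forms the anchoring fibrils that tie the epidermis to the dermis. It had an FPKM of 0.122 and 0.119 after DMSO and 0.0629 and 0.05 after SF1-8, with a log2 fold change of -1.08 (SE 0.31, unadjusted p = 0.0178, edgeR quasi-likelihood test). Like COL10A1, it differed little within DMSO (1.02-fold) and 2.13-fold between the group means, against 2.35-fold for COL10A1.

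The multiplexins were among the best expressed collagens and differed little. COL15A1 had an FPKM of 2.37 and 2.25 after DMSO and 2.01 and 2.10 after SF1-8, a log2 fold change of -0.14 (SE 0.11). COL18A1, the precursor of endostatin, had 1.84 and 2.04 after DMSO and 1.74 and 1.81 after SF1-8, a log2 fold change of -0.11 (SE 0.13). In FPKM the groups did not overlap in either gene, but each difference was near its SE. Neither passed the unadjusted threshold (unadjusted p = 0.269 and unadjusted p = 0.445, edgeR quasi-likelihood test). The COL18A1 entry (chromosome 21, 45405129 to 45513720, + strand) lies before COL6A1 on that chromosome, overlaps SLC19A1 on the other strand, and was nearly level where COL6A1 and COL6A2 were lower.

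The transmembrane collagens were near the limit of detection. COL17A1, the hemidesmosome collagen, had an FPKM of 0.0270 and 0.0137 after DMSO and 0.0297 and 0.0200 after SF1-8. COL25A1, known from amyloid plaques, had 0.0405 and 0.0211 after DMSO and 0.0452 and 0.0453 after SF1-8, and was the other collagen next to COL21A1 with both SF1-8 libraries above both DMSO libraries. The full-length COL23A1 entry had 0.0755 and 0.0358 after DMSO and 0.00433 and 0.0388 after SF1-8. The unadjusted p of these 3 lay above 0.3 in the edgeR quasi-likelihood test, and COL13A1 was listed at 0 in every library. A second COL23A1 entry of 410 bases, without strand and touching no annotated exon of the gene, had more counts (1.83 and 2.49 after DMSO, 1.42 and 1.73 after SF1-8, in FPKM) and a log2 fold change of -0.44 (SE 0.38). Similar short entries of COL18A1 (224 bases) and COL6A6 (233 bases) were not tested. They had 21 and 7, and 23 and 3, estimated counts after DMSO and at most 2 in an SF1-8 library.

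The 2 collagens of no class above, COL26A1 and COL28A1, had at most 8 estimated counts in a library and were not tested. In all, 13 entries were not tested, 5 of them listed at 0 throughout. No full-length entry among them exceeded an FPKM of 0.0202 in any library.

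**Figure D2:**
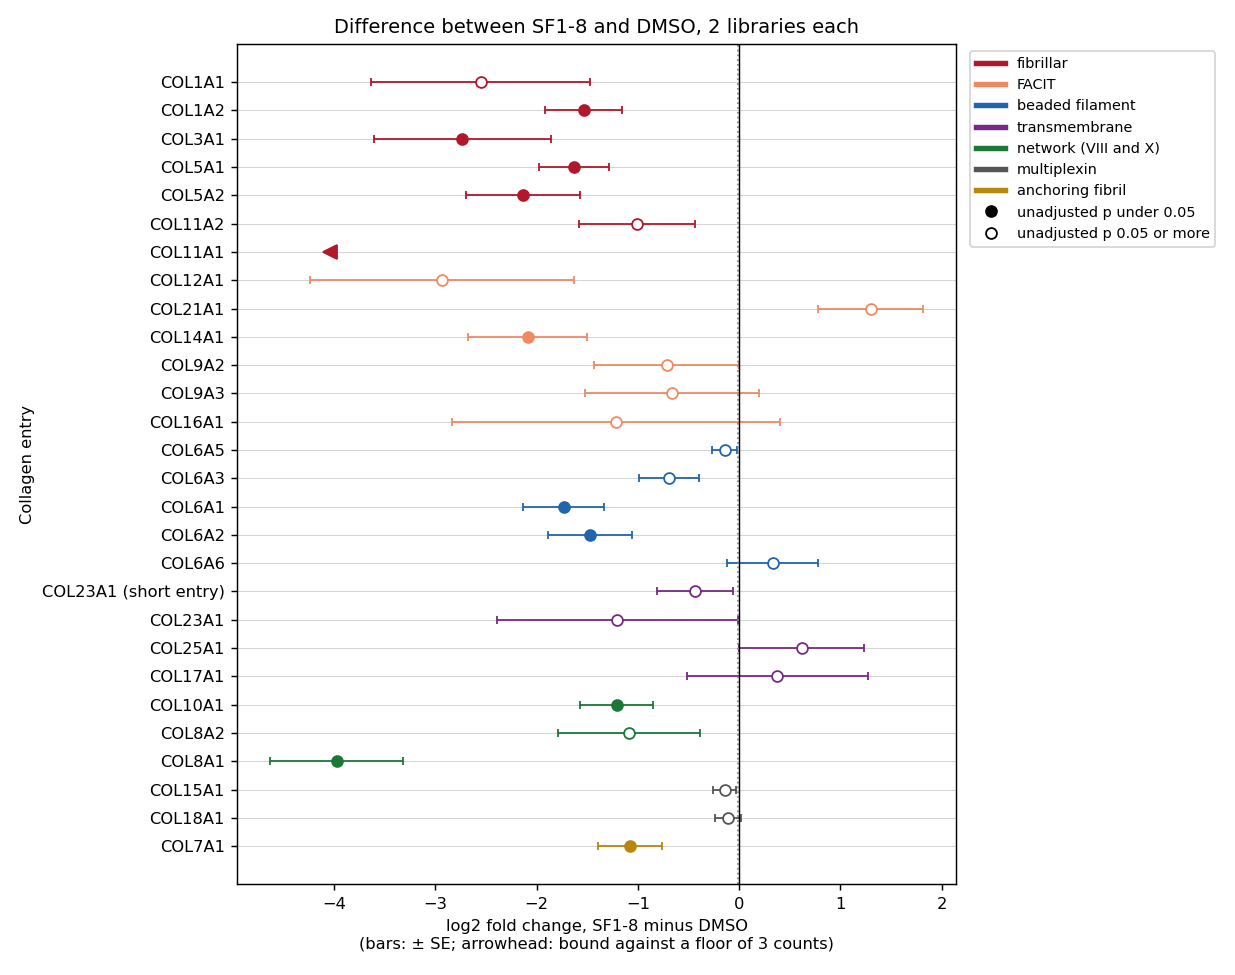
Log2 fold change (SF1-8 minus DMSO, bars ± SE) of the 28 tested collagen entries in the edgeR quasi-likelihood fit, coloured by class, with filled points for an unadjusted p under 0.05 and an arrowhead for the bound of COL11A1. The 7 fibrillar genes all lie left of 0, COL6A5, COL15A1 and COL18A1 lie within 0.15 of 0, and 4 entries lie right of it.

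The 4 libraries were then compared one by one, because the fibrillar genes differed within as well as between groups. Both SF1-8 libraries lay below both DMSO libraries in 22 of the 28 tested entries, where 20.0% of all genes tested did so, and above both in 2 entries, where 14.2% did. The 4 entries whose groups overlapped were COL6A6, COL8A2, COL17A1 and the full-length COL23A1. In 9 entries the libraries ranked DMSO 1, DMSO 2, SF1-8 1, SF1-8 2 from highest to lowest, a ranking found in 6.52% of all genes. These were COL1A1, COL1A2, COL3A1, COL5A1, COL5A2, COL6A2, COL7A1, COL8A1 and COL12A1. COL8A1 and COL11A1, which reached the filter's minimum only in the DMSO libraries, had to be lower after SF1-8. Both are among the 22, and COL8A1 is among the 9.

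The ratio of DMSO 1 to DMSO 2 was above 1 in 20 of the 28 entries (71.4%), near the 60.0% of all genes tested, with a median of 1.77 in FPKM against 1.06 over all genes tested. Among the 11 entries with an unadjusted p under 0.05 it lay between 0.964 and 3.49, and only COL10A1 had DMSO 2 above DMSO 1. The ratio of SF1-8 1 to SF1-8 2 was above 1 in 11 of the 26 entries that had counts in SF1-8 2, where 48.3% of all genes had SF1-8 1 above SF1-8 2, with a median of 0.960 against 0.989 over all genes. These 11 included COL1A1, COL1A2, COL3A1, COL5A1 and COL5A2.

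Leaving out DMSO 1 took the number of entries lower at an unadjusted p under 0.05 from 11 to 7 of 28 in the edgeR quasi-likelihood test, where 2.14% of all genes were lower. The 7 were COL1A2, COL5A1, COL6A1, COL7A1, COL8A1, COL10A1 and COL11A1, so that COL3A1, COL5A2, COL6A2 and COL14A1 lost the threshold. Both SF1-8 libraries lay below the remaining DMSO library in 22 of the 28 entries, against 33.2% of all genes. Both counts include COL8A1 and COL11A1, which had reached the filter's minimum only in the DMSO libraries. In these fits the lone DMSO library was taken to vary like the SF1-8 libraries.

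Which entries passed the unadjusted threshold also changed with each other library left out, by gains as well as losses. The size of several differences also rested on 1 library. The log2 fold change of COL1A1 was -5.28 without SF1-8 1 and -1.66 without SF1-8 2, and that of COL3A1 was -4.43 without SF1-8 1, -1.97 without SF1-8 2 and -1.89 without DMSO 1. COL12A1 had -1.94 without SF1-8 2, and without SF1-8 1 it had no counts left after SF1-8. Without DMSO 1, COL14A1 had -1.31, COL8A1 -3.33 and COL5A2 -1.53, and COL5A2 had -2.74 without SF1-8 1. All of these stayed below 0.

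Some fibroblast markers were lower after SF1-8 too, and others were not. Of 14 entries on the list, 9 were tested and 4 of them had lower values at an unadjusted p under 0.05 in the edgeR quasi-likelihood test, where 2.54% of all genes did. These were LUM and DCN, which encode collagen-binding proteoglycans, FBN1, which encodes fibrillin, and PDGFRB, a growth factor receptor of stromal cells. LUM had an FPKM of 0.170 and 0.0870 after DMSO and 0 and 0 after SF1-8, and DCN had 0.0815 and 0.0161 after DMSO and 0.00328 and 0 after SF1-8. With no counts after SF1-8, LUM passed the filter through DMSO alone, so that it had to differ and the count of 4 includes it. For DCN, at 0 in SF1-8 2, and for PDGFRB, which libraries reached the minimum was not worked out. PDGFRB had an FPKM of 0.0636 and 0.0195 after DMSO and 0.00630 and 0.00355 after SF1-8. The count of 4 therefore cannot be read against the share of all genes. The other 5 tested entries did not pass that threshold. THY1 had 0.132 and 0.0773 after DMSO and 0.191 and 0.0366 after SF1-8, the merged PDGFRA entry had both SF1-8 libraries above both DMSO libraries (log2 fold change 0.15, SE 0.08), and POSTN, TWIST1 and FBLN1 had log2 fold changes of -2.33, -0.85 and -0.12. DPT, SFRP2 and MEOX2 were listed at 0 in every library, and FAP and PRRX1 each had counts in a single DMSO library.

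Summed over 13 stromal entries, leaving out PDGFRA, whose entry is merged with FIP1L1, the FPKM was 1.26 and 0.874 for DMSO 1 and DMSO 2 and 0.535 and 0.312 for SF1-8 1 and SF1-8 2. The sum of COL1A1, COL1A2 and COL3A1 was 9.48, 4.52, 2.26 and 0.554, in the same ranking of the libraries. The sum of COL6A5, COL15A1 and COL18A1 was 6.85, 7.06, 5.96 and 6.51, and that of the 14 erythroid entries was 403, 396, 363 and 386. The part of stromal cells or their RNA, and of the depth of DMSO 1, in the collagen values was not tested. In bulk RNA, fewer cells that express a gene and less of its RNA per cell cannot be told apart.

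**Figure D3:**
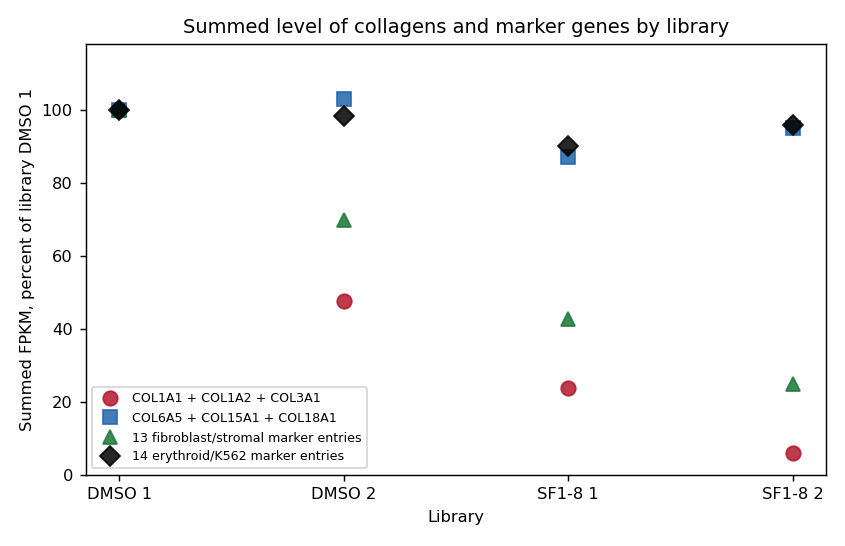
Summed FPKM in each library, as a percent of library DMSO 1, for 2 sets of 3 collagens, 13 fibroblast/stromal marker entries and 14 erythroid/K562 marker entries. The sum of COL1A1, COL1A2 and COL3A1 stood at 47.7%, 23.8% and 5.85% in the other 3 libraries. The stromal sum stood at 69.7%, 42.6% and 24.8%, while the other 2 sums stayed between 87.0% and 103%. Both collagen sets were picked by how they behaved in these libraries.

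Genes that act on collagen chains were level where they were well expressed. Among the low ones, every difference beyond 1 on the log2 scale was toward lower values after SF1-8. Of 60 tested entries for enzymes, carriers, receptors and proteases, 2 were lower after SF1-8 at an unadjusted p under 0.05 in the edgeR quasi-likelihood test and 0 were higher, near the 2.54% and 1.78% of all genes, and none passed the adjusted threshold. The median log2 fold change over these 60 entries was -0.03. All 18 tested entries with a mean FPKM of at least 5 lay within 0.12 of 0 on the log2 scale. Another 9 entries, all with a mean FPKM under 1, had a log2 fold change below -1. The highest log2 fold change of the 60 entries was 0.89. Of the 9, ADAMTS2, a propeptide protease, had -3.11 and TIMP2, a protease inhibitor, -1.89. Only PLOD2 among the 9 passed the unadjusted threshold.

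Among the genes of chain modification and folding, PPIB, a proline isomerase, was the highest, with an FPKM of 91.2 and 93.5 after DMSO and 94.2 and 93.0 after SF1-8. PLOD2, a lysine hydroxylase for the ends of fibrillar chains, was the only one of 20 tested entries with an unadjusted p under 0.05 (unadjusted p = 0.0160, edgeR quasi-likelihood test). It had 0.263 and 0.129 after DMSO and 0.0340 and 0.0692 after SF1-8, a log2 fold change of -1.89 (SE 0.54). Its level was in the range of the collagens themselves.

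None of 11 tested entries for collagen secretion and none of 12 for propeptide removal and cross-linking passed the unadjusted threshold in the edgeR quasi-likelihood test. KLHL12, a ligase adaptor for large transport vesicles, had the highest mean in the first list, at 15.7 and 15.4 after DMSO and 15.1 and 14.4 after SF1-8 in FPKM. ADAMTS3, a propeptide protease, led the second at 6.07 and 6.13 after DMSO and 6.25 and 6.49 after SF1-8. Neither gene differed by more than 0.1 on the log2 scale.

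Of the collagen receptors, 10 entries were tested and 1 passed the unadjusted threshold in the edgeR quasi-likelihood test. It was DDR1, a receptor kinase, with 3.46 and 3.25 after DMSO and 2.81 and 2.79 after SF1-8 in FPKM (log2 fold change -0.24, SE 0.09, unadjusted p = 0.0498, edgeR quasi-likelihood test). A second DDR1 entry had 1.13 and 1.76 after DMSO and 0.468 and 0.549 after SF1-8, and did not pass. ITGB1, the shared β chain of the collagen integrins, had the highest mean, with 34.7 and 21.3 after DMSO and 24.6 and 34.4 after SF1-8, and its replicates differed more than its groups. Among 7 tested entries for collagen breakdown 0 passed by the same test, and TIMP1, a protease inhibitor, was the highest at 28.7 and 27.3 after DMSO and 28.5 and 26.3 after SF1-8.

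The type IV collagens, which form the sheets of basement membranes, had 5 tested entries, none with an unadjusted p under 0.05 in the edgeR quasi-likelihood test. Their median log2 fold change was -0.42. COL4A1 had an FPKM of 0.238 and 0.0847 after DMSO and 0.0593 and 0 after SF1-8, in the ranking seen for type I collagen, and COL4A5, the highest of them, had 0.311 and 0.350 after DMSO and 0.308 and 0.303 after SF1-8. The difference between type IV and the other collagens was not tested.

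**Figure D4:**
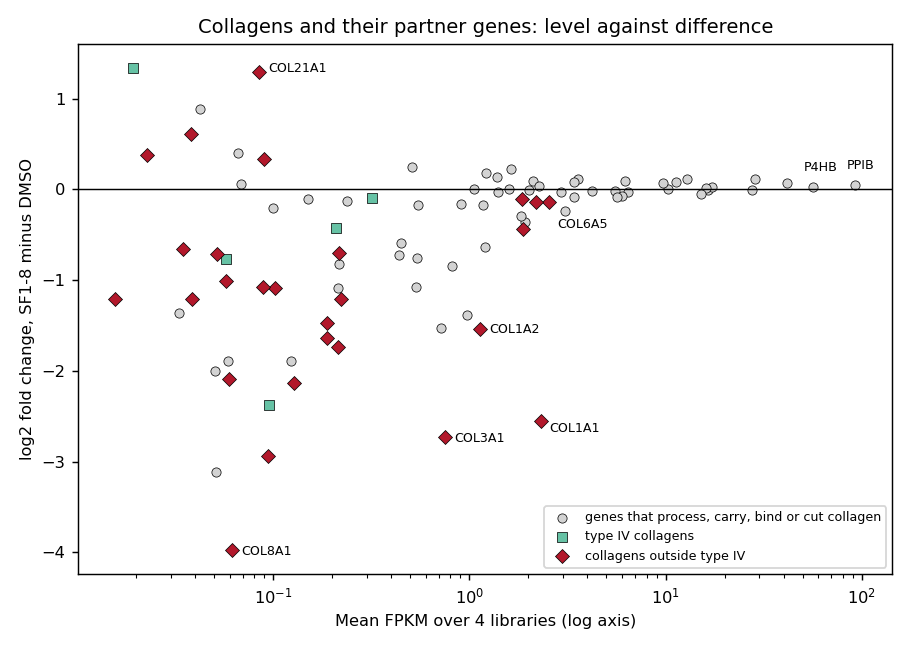
Mean FPKM over the 4 libraries (log axis) against log2 fold change (SF1-8 minus DMSO) for 27 tested collagen entries (COL11A1 left out, as it had no counts after SF1-8), 5 type IV collagens and 60 entries of partner genes. Above a mean FPKM of 5 the points lie within 0.12 of 0, and COL1A1, COL1A2 and COL3A1 lie below the other entries of their level.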

How the data were processed

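Total RNA depleted of rRNA was sequenced from 2 DMSO and 2 SF1-8 libraries of K562 cells with U2AF1 S34F. The authors deposited 1 table with an FPKM value per entry and library, and estimated counts as whole numbers without normalization. The submitters' processing notes name cutadapt, FastQC, Bowtie2, HISAT2, StringTie and hg38, and roles and versions are not given in the sources used here. An FPKM of 0.0001 stands where the count is 0 and was read as 0. Since small counts cluster at 4 and 8, they were not read as single reads, and no counting error was computed. The 2095 entries without a name, with 0.372% of the counts, were left out.

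Counts were tested with edgeR 4.0.16 in R 4.3.3 (TMM, filterByExpr, quasi-likelihood test, Benjamini-Hochberg over 26167 genes), without covariates. DESeq2 1.42.0 and limma 3.58.1 served as alternatives, and the steps were tested on simulated data. The members and gene lists were chosen with earlier results of these data known. Every collagen is named, and of each partner list the genes with an unadjusted p under 0.05 and the gene with the highest mean FPKM. A collagen symbol in several entries is given by each of them. Exons come from the longest coding transcript in GENCODE 29, whose build matches the table's coordinates. Values per transcript were not analysed here.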

Additional observations from a re-analysis of the deposited data

How the results depend on the processing

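The count of collagens past an adjusted p of 0.05 was 0 by the edgeR quasi-likelihood test, by its version with RLE factors, without a filter, with counts divided by 4 and by limma, and 4 by DESeq2. The median log2 fold change of the tested collagens was -1.15, and it moved to -1.44 with counts divided by 4 (19 entries tested), to -0.11 and -0.50 by limma on log2(FPKM + 1) and log2(FPKM + 0.1), whose pseudocount draws low genes toward 0, and to -0.42 by limma with quantile normalization. In each of these settings more collagens were lower than higher. Without a filter, 1 collagen was higher at an unadjusted p under 0.05, where the edgeR quasi-likelihood test had 0. The 2 partner entries past that threshold became 1 with RLE factors and by limma on log2(FPKM + 1), 5 without a filter and 0 by limma with quantile normalization.

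Leaving out each library in turn gave between 7 and 12 lower collagens, between 0 and 1 higher, a median between -1.44 and -1.05, between 22 and 24 entries with SF1-8 below DMSO (this count was added after seeing the data) and between 1 and 6 partner entries. These fits held between 28 and 31 collagen entries, so that the counts of lower entries have different totals. The count with SF1-8 below DMSO was always out of 28, where between 33.2% and 45.1% of all genes did so. The lower entries without DMSO 2 include the short COL6A6 entry, which had 23 estimated counts in DMSO 1 and none after SF1-8. On the log2 scale, the full-length COL6A6 ranged from -0.045 without SF1-8 2 to 0.79 without DMSO 2. COL18A1 ranged from -0.21 to 0.016 without DMSO 2, so that both changed sign with the library left out. The full-length COL23A1 moved more, from -2.97 to -0.43, and COL16A1 had no counts left after SF1-8 without SF1-8 2, beside those given above for COL1A1, COL3A1, COL5A2, COL8A1, COL12A1 and COL14A1.

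The labels give both groups the numbers 1 and 2. With the replicate block 0 collagens passed the adjusted threshold, and the median was -1.15. At an unadjusted p under 0.05 in that edgeR fit, 13 of 28 were lower and 0 higher. The share of all genes lower in that fit was not computed. Same-numbered libraries deviated together with a correlation of 0.0165 over genes, and they are known to share only a number.

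With 2 libraries a group, an exact permutation cannot give a two-sided p below 0.333, and 21 of the 28 tested entries had a mean FPKM under 0.5, so that most values rest on few counts.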
